A study of Drosophila melanogaster with 2 samples.

Results

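Chromatin immunoprecipitation with sequencing (ChIP-seq) peaks of the zinc finger protein l(3)neo38 were examined where they lie beside, but not on, the starts of protein-coding genes in Drosophila melanogaster embryos. The members are the thresholded peaks whose summit, the position of greatest enrichment that the authors gave, lies more than 100 and up to 500 bp from the nearest annotated transcript start of a protein-coding gene on the 6 chromosome arms. They number 834 of the 3953 thresholded peaks on the genome build dm6, or 21.1% (95% exact binomial interval 19.8 to 22.4). Of these, 597 lay upstream of the start and 237 downstream, by the strand of the gene. Position alone chose them, and no filter on low values was applied, so all 834 enter every count below.

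The study holds 2 biological replicates of 1 group. Both are whole embryos of 0 to 24 h, male and female together, from a transgenic line that stably makes l(3)neo38 with enhanced green fluorescent protein at its C terminus, and chromatin was precipitated through the GFP tag. Sonicated fragments were in the range of 200 to 800 bp. All material therefore carries the tagged protein, in 1 line, and averages over the stages and tissues of embryogenesis. Untagged embryos, other factors and other ages were not analysed here, so a peak could not be set against a background of the same kind, and no conditions were compared. The lists give no read counts, and sequencing depth is therefore unknown. Tests over peaks count regions of the same lists, which are not independent replicates.

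A fly promoter has a core around the transcript start, where the Initiator, the TATA box, the DNA replication related element (DRE) or the element named Motif 1 may lie, and a proximal stretch upstream of it where regulatory proteins bind. DREF and M1BP, the proteins that bind DRE and Motif 1, are known for the promoters of broadly active genes. GAGA factor, encoded by Trl, binds GAGAG repeats at the promoters of many developmental genes and helps to keep them free of nucleosomes. Proteins with C2H2 zinc fingers, such as l(3)neo38, are often known to read short G-rich or C-rich stretches of DNA.

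The C-rich octamer is shown first because it was found at many summits and hardly at the starts beside them. It stands for any of the 4 overlapping words CCCACCCC, CCCCACCC, CCCCCACC and CCACCCCC on either strand. The windows below reach 50 bp to either side of the summit, are read 5′ to 3′ along the coding strand of the gene, and come from the release 6 genome (dm6) of RefSeq, with each match in capitals. They are the 4 strongest upstream members that hold a match, leaving out windows on 1 chromosome arm not printed here and windows that overlap an annotated UTR. Stronger upstream members such as L hold a match too and are not shown for that reason. The genes are erm, which encodes a zinc finger factor of neural stem cell lineages, CG9016, l(3)neo38 itself and sim, the master regulator of the ventral midline.
erm, chr2L:1970594-1970694, gene on the minus strand, summit -282 bp from the start, authors' signal value 1905: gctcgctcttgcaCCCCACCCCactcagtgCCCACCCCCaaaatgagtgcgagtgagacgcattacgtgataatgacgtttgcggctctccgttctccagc
CG9016, chr2L:5923851-5923951, gene on the minus strand, summit -248 bp from the start, authors' signal value 1262: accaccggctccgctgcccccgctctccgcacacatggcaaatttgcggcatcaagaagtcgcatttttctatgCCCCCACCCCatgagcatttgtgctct
l(3)neo38, chr3R:11773972-11774072, gene on the minus strand, summit -452 bp from the start, authors' signal value 1170: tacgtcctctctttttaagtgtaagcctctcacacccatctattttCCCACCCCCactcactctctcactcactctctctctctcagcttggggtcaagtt
sim, chr3R:13057382-13057482, gene on the plus strand, summit -323 bp from the start, authors' signal value 868.5: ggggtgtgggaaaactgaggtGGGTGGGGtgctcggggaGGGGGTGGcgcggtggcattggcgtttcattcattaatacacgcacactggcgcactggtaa

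The 4 strongest downstream members under the same restrictions lie inside introns, and stronger ones such as CG5902 are not shown. Their matches fall on either strand, and the window at Pino holds 5 overlapping matches while the other 3 hold 1 each.
lili, chr3R:24813497-24813597, gene on the minus strand, summit 465 bp from the start, authors' signal value 740.1: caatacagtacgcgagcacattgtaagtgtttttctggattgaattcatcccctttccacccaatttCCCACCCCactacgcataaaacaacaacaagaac
Zn72D, chr3L:16112101-16112201, gene on the minus strand, summit 259 bp from the start, authors' signal value 511.6: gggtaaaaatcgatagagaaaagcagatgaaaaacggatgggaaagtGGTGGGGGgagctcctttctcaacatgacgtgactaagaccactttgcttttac
CG31523, chr3R:4478532-4478632, gene on the minus strand, summit 267 bp from the start, authors' signal value 500.8: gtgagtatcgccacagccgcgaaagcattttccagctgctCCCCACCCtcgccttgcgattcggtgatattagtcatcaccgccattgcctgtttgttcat
Pino, chr2L:1128466-1128566, gene on the minus strand, summit 437 bp from the start, authors' signal value 452.9: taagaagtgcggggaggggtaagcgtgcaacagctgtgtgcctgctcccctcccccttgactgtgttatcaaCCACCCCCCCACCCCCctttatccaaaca

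GAGAG, with CTCTC on the opposite strand, is shown at the 2 upstream members with the most copies under the same restrictions and at the upstream l(3)neo38 summit, chosen after their values were seen. Sox21a and oc encode a Sox and a homeodomain transcription factor. The Sox21a window holds 11 copies, the oc window 10 and the l(3)neo38 window 9, counted whether they overlap or lie apart.
Sox21a, chr3L:14108273-14108373, gene on the minus strand, summit -205 bp from the start, authors' signal value 147.7: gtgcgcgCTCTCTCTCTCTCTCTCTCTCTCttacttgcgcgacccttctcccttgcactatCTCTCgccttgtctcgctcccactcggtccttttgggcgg
oc, chrX:8650923-8651023, gene on the minus strand, summit -292 bp from the start, authors' signal value 426.7: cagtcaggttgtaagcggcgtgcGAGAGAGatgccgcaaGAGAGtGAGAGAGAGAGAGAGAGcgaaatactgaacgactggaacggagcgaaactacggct
l(3)neo38, chr3R:11773972-11774072, gene on the minus strand, summit -452 bp from the start, authors' signal value 1170: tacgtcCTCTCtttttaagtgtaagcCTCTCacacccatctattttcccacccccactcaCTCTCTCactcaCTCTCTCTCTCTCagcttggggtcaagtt

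The word CACACACA, or TGTGTGTG on the opposite strand, is shown at 2 downstream members, also chosen after their values were seen. The gene tgo encodes the bHLH-PAS partner of sim, and woc encodes a zinc finger protein.
tgo, chr3R:9019760-9019860, gene on the minus strand, summit 212 bp from the start, authors' signal value 829.2: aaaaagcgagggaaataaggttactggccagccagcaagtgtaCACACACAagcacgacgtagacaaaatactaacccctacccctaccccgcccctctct
woc, chr3R:27263514-27263614, gene on the minus strand, summit 491 bp from the start, authors' signal value 304.1: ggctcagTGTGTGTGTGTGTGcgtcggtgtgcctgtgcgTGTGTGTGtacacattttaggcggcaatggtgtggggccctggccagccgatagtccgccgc

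Summits were packed most densely just upstream of starts. From just over 100 to 200 bp upstream there were 260 summits, or 173 per megabase of sequence at that position. The density was 140 per megabase at 201 to 300 bp upstream, 85.4 at 301 to 400 bp and 46.7 at 401 to 500 bp. The stretch nearest to the start held fewer, with 116 per megabase in the 100 bp before it and 54.1 from the start to 100 bp after it. Downstream the density ran from 32.4 to 40.3 per megabase in 4 bins of 100 bp, against 29.5 over the whole arms. The median distance was 218 bp for upstream and 288 bp for downstream members.

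**Figure D1:**
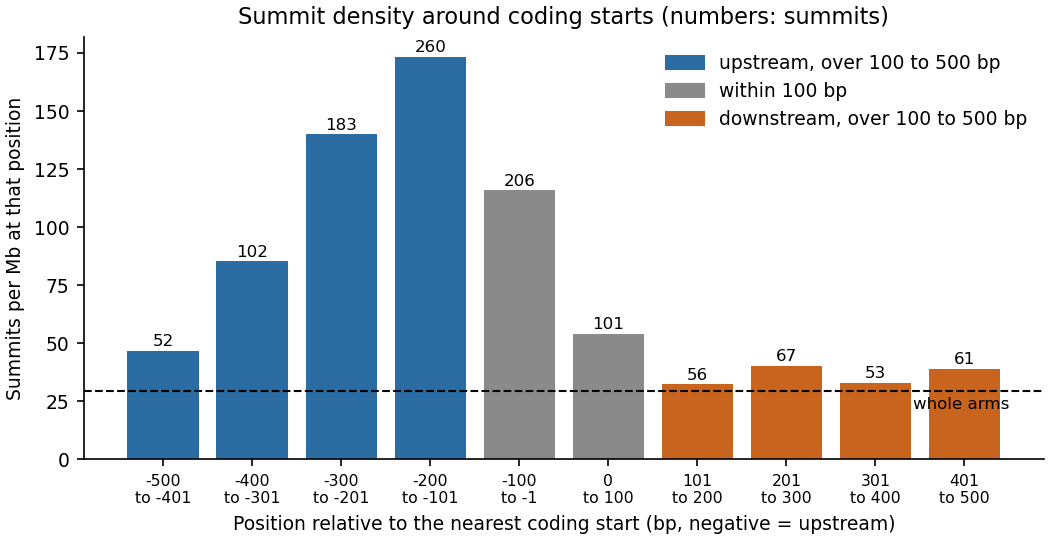
Thresholded summits per megabase (y axis) in 100-bp bins of position relative to the nearest coding start (x axis, negative upstream), with the number of summits above each bar and the whole-arm density of 29.5 as a dashed line. The bar for just over 100 to 200 bp upstream is the tallest at 173 per megabase, and the 4 downstream bins lie between 32.4 and 40.3.

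Upstream members made up 71.6% of the 834 (95% exact interval 68.4 to 74.6). The share was 67.1% among the 307 summits within 100 bp of a start. It was 71.7% of 920 such summits among the 3953 strongest entries of replicate 1's own list and 69.9% of 762 in replicate 2's. With only the start farthest upstream of each gene annotated, there were 590 members and the upstream share was 60.2%. The outermost start was the nearest one for 60.9% of the 834 members, 343 of the 597 upstream and 165 of the 237 downstream.

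The sides differ in what the annotation places at the summit, in part by the rule itself. Sequence just after a start normally lies inside the gene, and 0 of 237 downstream members were intergenic. Of the upstream members, 294 (49.2%) were intergenic, 254 (42.5%) lay in an intron, and 25 lay in a 5' UTR. Of the downstream members, 122 (51.5%) lay in a 5' UTR, 96 (40.5%) in an intron and 16 in a coding exon. The interval of the peak reached over the start in 39.9% of upstream and 24.9% of downstream members, against 95.4% of the summits within 100 bp. Peak intervals had a median width of 460 bp on both sides and within 100 bp, so nearer summits reach over a start more easily. Only 44 members lay between the starts of 2 divergent genes, a place that is upstream by definition. A further coding gene had a start within 500 bp of 90 members, 20 members were equally far from starts of several genes, and a non-coding start was nearer for 23, so the gene named for these is 1 of several candidates.

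The limits of the rule cut through a continuous spread of summits. The 29 summits at 91 to 100 bp had a median signal of 212.8, and the 26 just past 100 and up to 110 bp had 192.7. At the outer limit the 7 summits at 491 to 500 bp had a median of 206.3 and the 11 at 501 to 510 bp had 259.1. The signal value is the authors' measure of peak strength, and is used here only to rank and describe peaks of 1 list.

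The 10 strongest members on each side lay at genes of several roles, among them transcription factors and chromatin proteins. At erm the signal value was 1271 in replicate 1 and 641.9 in replicate 2, and the authors' value in the thresholded list, which rests on both replicates, was 1905, rank 3 of 3953. The summit lay 282 bp upstream of the start, and the replicate summits at 281 and 286 bp. At L, the Lobe gene of eye growth, the values were 955.5 in replicate 1 and 560.4 in replicate 2, with 1517 in the thresholded list. Both peaks thus kept nearly the same place in the replicates. At tou, which encodes a relative of chromatin remodelling subunits, the values were 837.1 and 628.3 in replicates 1 and 2, with 1461 in the thresholded list. At CG9016 they were 767.8 and 511.2, with 1262 in it. Replicate 1 gave the higher value at each of these genes, but the replicate lists were made separately, so ranks are the better guide across them.

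Both genes of the polyhomeotic pair, subunits of Polycomb repressive complex 1, were among the 10 strongest upstream members. The ph-p summit lay 444 bp upstream of an inner start with a signal of 809.2 in replicate 1, rank 16, and 373.9 in replicate 2, rank 55. The ph-d summit lay 430 bp upstream with 608.8 in replicate 1, rank 37, and 498.3 in replicate 2, rank 25. The genes are a tandem duplication, and no source used here says how reads shared by the copies were placed. The ph-p summit of replicate 2 lay 502 bp from the start, just past the outer limit. The remaining upstream members of this group were at l(3)neo38, at Fkbp14, which encodes a peptidyl-prolyl isomerase, at svp, a COUP-TF nuclear receptor, and at tup, the fly Islet homeodomain protein. Their values in the thresholded list ran from 913.5 at tup to 1170 at l(3)neo38.

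**Figure D2:**
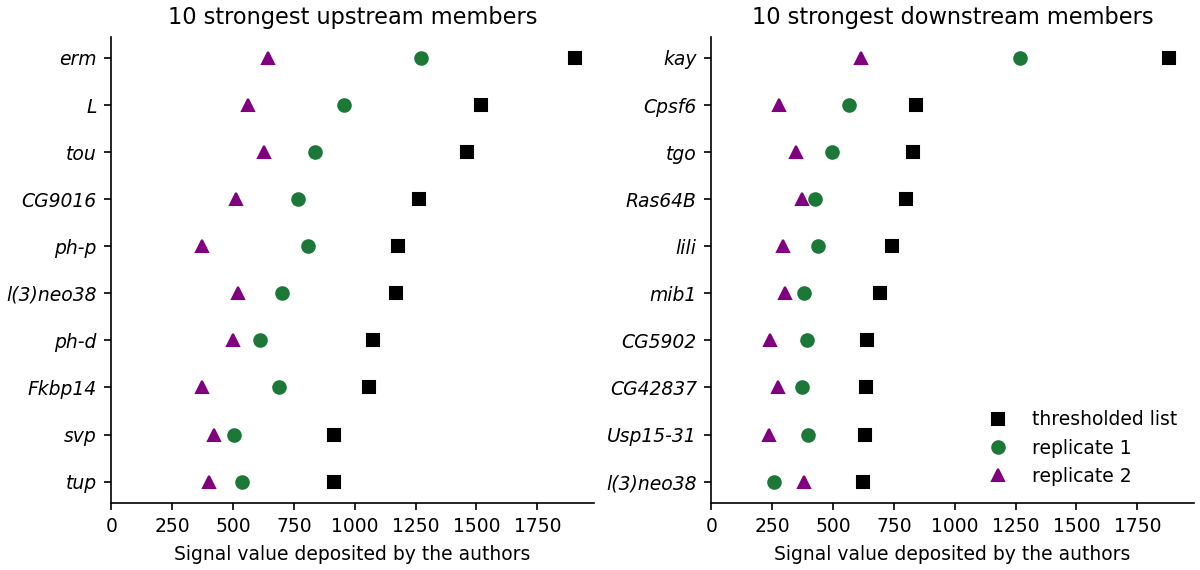
Signal values deposited by the authors (x axis) for the 10 strongest upstream and the 10 strongest downstream members (y axis, nearest gene), with squares for the thresholded list, circles for replicate 1 and triangles for replicate 2. Replicate 1 is the higher of the 2 replicates at every member drawn except the downstream summit of l(3)neo38, which had 255.6 in replicate 1 and 382.6 in replicate 2.

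Downstream, 1 member stood far above the others. At kay, which encodes the fly Fos protein, the values were 1268 in replicate 1, rank 3, and 613.5 in replicate 2, rank 11. The value in the thresholded list was 1878, and the summit lay 277 bp after a start, in the 5' UTR. The next was Cpsf6, which encodes a pre-mRNA 3' end processing factor, with 563.7 in replicate 1, 278.2 in replicate 2 and 839.8 in the thresholded list. No other downstream member came near the value at kay. The others were tgo at 829.2 in that list, Ras64B, a small GTPase gene, at 800, lili at 740.1, and mib1, the ubiquitin ligase that activates Notch ligands, at 691.3. CG5902, CG42837, Usp15-31, a ubiquitin protease gene, and l(3)neo38 closed the list at 638.6 to 624.1. Of these 10 members, 5 lay in a 5' UTR, 4 in an intron and 1, at mib1, in a coding exon.

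The tagged gene had 3 members. The upstream summit at 3R 11774022, 452 bp before an inner start, had 701.1 in replicate 1 and 519.6 in replicate 2, ranks 25 and 20. The downstream summit at 3R 11777295, 421 bp after another start, had 255.6 and 382.6, ranks 426 and 50. A further downstream summit at 3R 11778078, 274 bp after a start and in the 5' UTR, had 242.5 and 209.6, ranks 491 and 350, with an authors' value of 395. All 3 were found in both replicates. The line is transgenic for a tagged form of this gene. The labels do not say whether it carries added copies of the locus, and the part of any such copies in these peaks was not tested.

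Most genes had 1 member. Of the 13945 protein-coding genes, 764 (5.48%) were nearest to at least 1 member, 681 of them to exactly 1, 76 to 2 and 7 to 3 or more. The gene with the most was Ptpmeg2, a protein tyrosine phosphatase gene, with 4 upstream summits at 129 to 205 bp from 4 different starts, with signals from 148.1 to 325.9. Those with 3 were l(3)neo38, tou, Rtnl1, a reticulon gene, REPTOR, a transcription factor gene of the TOR pathway, brwl and Tlk, the Tousled-like kinase gene. At tou the strong summit of 1461 was joined by one of 346.8 upstream and one of 198.6 downstream of other starts. Members lay on both sides of starts for 23 genes, and 66 of the 764 genes also had a summit within 100 bp of a start.

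Members as a whole were stronger than the summits on starts, but downstream members of the thresholded list were not. Their median signal was 236.3, with 244.6 upstream and 211.1 downstream, against 212.8 for the 307 summits within 100 bp and 199.4 for the 1630 summits over 2000 bp from any start. More members than summits within 100 bp exceeded the median of the whole list, 58.3% against 50.8% (two-sided Fisher's exact test, adjusted p = 0.0374 over 10 comparisons). In the replicates' own lists, where the members were found anew, the shares were 60.3% against 50.3% in replicate 1 (Fisher's exact test, adjusted p = 0.00331) and 58.0% against 45.2% in replicate 2 (Fisher's exact test, adjusted p = 0.000906). The difference thus had the same direction in both replicates. Neither side alone was tested against the summits within 100 bp. Of downstream members, 50.6% exceeded the list's median in the thresholded list, 54.6% in replicate 1's and 49.3% in replicate 2's.

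Upstream members were also stronger than downstream members. The share above the list's median was 61.3% upstream and 50.6% downstream (Fisher's exact test, adjusted p = 0.00853). It was 62.6% and 54.6% in replicate 1 (Fisher's exact test, adjusted p = 0.0374), and 61.7% and 49.3% in replicate 2 (Fisher's exact test, adjusted p = 0.00356).

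The replicates shared most members, but the thresholded list was itself made from both replicates by the irreproducible discovery rate procedure. Agreement between replicates thus bore on which peaks entered it, and the shares below are no independent check of the members. A summit among the 3953 strongest entries of replicate 1 lay within 100 bp of 708 members, and one of replicate 2 of 627. Both held 532 members, or 63.8%, against 50.2% of the summits within 100 bp (Fisher's exact test, adjusted p = 0.000206), and 31 members were in neither. The share was 65.3% upstream and 59.9% downstream (Fisher's exact test, adjusted p = 0.168), which did not pass. In the full lists of 30000 entries each, both replicates held 749 members, and their summits lay a median of 29 bp apart. Among the 417 stronger members 91.6% were matched in both, among the 417 weaker ones 36.0%. Of the 532 matched members, 494 (92.9%) had both replicate summits in the same distance range. Of the 154 matched summits within 100 bp, 122 (79.2%) stayed within 100 bp (Fisher's exact test, adjusted p = 5.89e-05). The range within 100 bp is the narrower one, so the same shift in bases leaves it more easily.

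The C-rich octamer lay at the summits and not at the starts. It was found within 50 bp of the summit in 104 of 834 members, 12.5% (95% exact interval 10.3 to 14.9), and within 50 bp of the nearest start in 8, or 0.959%. No member held it in both windows, 104 held it at the summit only and 8 at the start only (exact McNemar test, adjusted p = 2.77e-21). The octamer was among motifs chosen with earlier results of these data known, and by the rule a start window never contains the summit. The p-value is therefore no independent support for the octamer at these summits. Of the 14 motifs compared this way, 6 (42.9%) passed. In windows of the same width at the 19253 distinct coding starts of the genome the octamer was found in 0.795% at 250 bp upstream, 0.774% at 250 bp downstream and 0.436% at the start. Its share in upstream members, 10.7%, and in downstream members, 16.9%, exceeded those values. The windows at all starts were not matched in base composition. Their median GC content was 37.6% at 250 bp upstream, against 48.5% in upstream members. Downstream it was 46.5% at 250 bp, against 50.5% in downstream members.

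No difference in octamer share between members and other peaks passed the test. It was 12.5% in members, 11.4% within 100 bp of starts (Fisher's exact test, adjusted p = 1) and 15.5% at summits over 2000 bp from any start (Fisher's exact test, adjusted p = 0.193). The difference between upstream and downstream members was -6.16 percentage points (Fisher's exact test, adjusted p = 0.104). With replicate 1's own list it was -9.22 points (Fisher's exact test, adjusted p = 0.001425). With replicate 2's it was -6.34 points (Fisher's exact test, adjusted p = 0.103), so the call depended on the list. Among thresholded windows with a GC content of 35% or more, a limit chosen after seeing the data, the shares were 14.6% upstream and 18.0% downstream. The difference there was -3.44 points (Fisher's exact test, adjusted p = 0.792) and did not pass. Of 103 members with matches on 1 strand, 57 had them on the coding strand. The octamer was found in 15.1% of the stronger 417 members and 9.83% of the weaker 417.

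Along the gene, octamers gathered at the summit. In 50-bp bins of upstream members the share was 5.36% in the bin centred 50 bp before the summit, 5.70% at it and 3.52% in the bin 50 bp after it, and at most 2.18% in the bins farther out. In downstream members it was 2.95%, 8.44% and 9.28% in the same 3 bins and 4.64% at 100 bp after the summit, and this contrast of shapes was not tested. A rise to 4.22% at 250 bp after the summit rests on 10 downstream members.

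**Figure D3:**
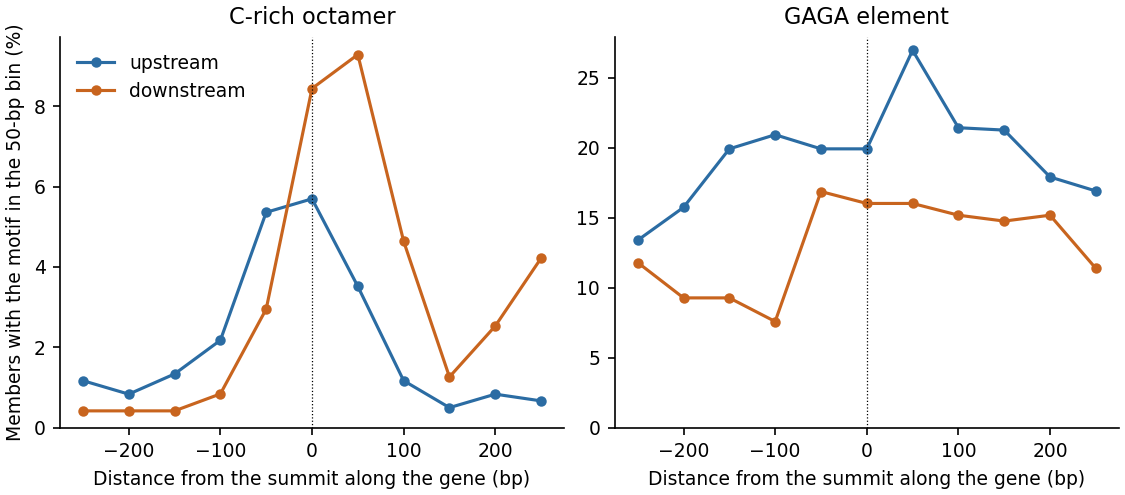
Share of members (y axis, %) with a C-rich octamer (left) or the GAGA element GAGAG (right) in 50-bp bins of distance from the summit, measured along the gene (x axis, bp), for upstream and downstream members. The octamer lines reach 5.70% upstream and 9.28% downstream near the summit, while the GAGAG line of upstream members stays between 13.4% and 27.0% in every bin drawn.

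GAGAG, the shortest of the motifs, was the most frequent of them, and it was more frequent in members than in the other classes of peaks compared. It was found within 50 bp of the summit in 282 members, 33.8%, against 22.1% of the summits within 100 bp of starts (Fisher's exact test, adjusted p = 0.00104) and 22.8% of those over 2000 bp from any start (Fisher's exact test, adjusted p = 1.84e-07). Of the 42 motif comparisons between classes of peaks, 6 (14.3%) passed. The comparison with summits within 100 bp did not pass among the stronger peaks of the list (Fisher's exact test, adjusted p = 0.189) or in windows of 25 bp to either side (Fisher's exact test, adjusted p = 0.0592). In windows at all coding starts GAGAG was found in 11.3% at 250 bp upstream, 12.7% at the start and 11.6% at 250 bp downstream. Along the gene, GAGAG did not centre on the summits of upstream members. The share was 19.9% in the 50-bp bin at the summit, 27.0% in the bin 50 bp after it and 20.9% 100 bp before it. In downstream members these were 16.0%, 16.0% and 7.6%, and the shapes were not tested.

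The nearest starts of members were rich in GAGAG as well. The window at the start held it in 184 members, 22.1%, with 210 members holding it at the summit only, 112 at the start only and 72 at both (exact McNemar test, adjusted p = 2.09e-07). Upstream members held it in 35.3% and downstream members in 30.0% of summit windows (Fisher's exact test, adjusted p = 0.468). Among windows with a GC content of 35% or more, a limit chosen after seeing the data, the shares were 45.6% and 31.1%, and the difference passed (Fisher's exact test, adjusted p = 0.00351). By distance, the share was 44.2% at 401 to 500 bp upstream, 36.3% at 301 to 400 bp, 37.7% at 201 to 300 bp and 31.5% nearer than that, with 52 to 260 members per bin. Downstream it was 21.4%, 40.3%, 22.6% and 32.8% in the 4 bins going away from the start, with no order. In 93 members the window held 3 or more copies, counted whether they overlapped or lay apart. Both GAGAG and the C-rich octamer lay in 41 member windows, and 489 windows held neither.

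The CACACACA repeat was more frequent on the downstream side. It was found in 30 of 237 downstream members, 12.7%, and in 27 of 597 upstream members, 4.52% (Fisher's exact test, adjusted p = 0.00101). All coding starts held it in 3.95% of windows at 250 bp downstream and 1.83% at 250 bp upstream, so the downstream side of genes is the richer one in general. The difference did not pass in replicate 2's own list, at -5.10 points (Fisher's exact test, adjusted p = 0.103), or among the stronger peaks of the list, at -5.92 points (Fisher's exact test, adjusted p = 0.189). The repeat was in 6.83% of all member summit windows and 2.52% of their start windows (exact McNemar test, adjusted p = 7.88e-05).

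DRE and Motif 1 were nearly missing from member summits. DRE, spelled TATCGATA, which is its own reverse complement, was in 2 of 834 members, 0.240%, and in 18 of 307 summits within 100 bp, 5.86% (Fisher's exact test, adjusted p = 1.72e-07). Motif 1, searched as GGTCACAC on both strands, was in 0 of 834, for which the 95% exact interval reaches 0.441%, and in 10 of 307, 3.26% (Fisher's exact test, adjusted p = 2.50e-05). Summits over 2000 bp from any start held DRE in 0.184% and Motif 1 in 0.123% (Fisher's exact test against members, adjusted p = 1 for both), so low shares were also found at peaks far from starts. At the nearest starts of the same members DRE was found in 23 windows and Motif 1 in 25 (exact McNemar tests, adjusted p = 5.44e-05 and 2.09e-07). Over all coding starts DRE was in 4.48% of windows at the start and 1.50% at 250 bp upstream, and Motif 1 in 4.68% and 1.12%. At 250 bp downstream they were in 0.187% and 0.208%. By the rule a member window never reaches the nearest start, while windows of summits within 100 bp can. The tests against those summits and against start windows therefore in part restate the distance rule.

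TAATTA, the core of homeodomain sites, was found in 44 members, 5.28%, and in 2.58% of summits over 2000 bp from any start (Fisher's exact test, adjusted p = 0.00723). It did not pass in replicate 1's own list (Fisher's exact test, adjusted p = 0.151) or in replicate 2's (Fisher's exact test, adjusted p = 0.453). Among windows with a GC content of 35% or more the difference was -0.029 points (Fisher's exact test, adjusted p = 1). Windows at 250 bp upstream of all coding starts held the word in 8.21%, more than the 5.53% of upstream members. The remaining 8 motifs passed in none of the 3 comparisons with Fisher's exact test at adjusted p under 0.05. They were AAAAAAAA, the Zelda word CAGGTAG, the Snail E-box CAGGTG, the bHLH E-box CAGCTG, the Myc E-box CACGTG, the AP-1 word TGACTCA, the GATA word TGATAAG and the POU octamer ATTTGCAT, each searched on both strands. The Zelda word was in 5 members, the AP-1 word in 6 and CAGCTG in 58. Against distal summits, CAGGTG and CAGCTG had unadjusted p = 0.0309 and p = 0.0138 with Fisher's exact test, the only values under 0.05 among these 8 motifs. Among windows with a GC content of 35% or more CAGCTG passed against distal summits, at 8.32% and 4.68% (Fisher's exact test, adjusted p = 0.00927). The letters of 2 motifs may share bases in 1 window, and each motif was then counted.

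**Figure D4:**
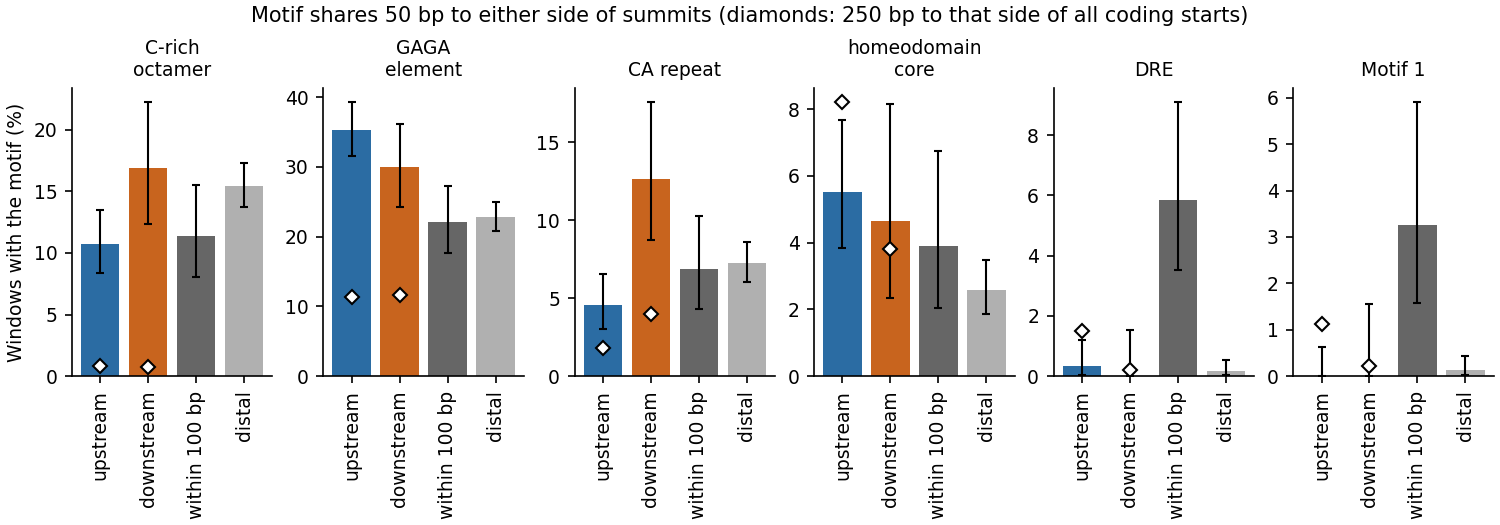
Share of windows reaching 50 bp to either side of the summit that hold each motif (y axis, %) in upstream members (597), downstream members (237), summits within 100 bp of starts (307) and distal summits over 2000 bp from any start (1630), with 95% exact binomial intervals. The CA repeat is CACACACA and the homeodomain core TAATTA. Diamonds show the share at 250 bp upstream or downstream of all 19253 coding starts, which is 0.795% or less for the C-rich octamer while upstream and downstream members stand at 10.7% and 16.9%.

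The starts themselves were described by the core elements they hold. Counting each start once, 799 starts were nearest to members and 307 to summits within 100 bp, with 38 in both sets. DRE lay within 100 bp of 4.01% of member starts and 8.14% of the others (Fisher's exact test, adjusted p = 0.0272 over 6 elements). Motif 1 lay there in 3.88% and 7.49% (Fisher's exact test, adjusted p = 0.0369). The Initiator TCAGT within 6 bp of the start was at 19.4% and 14.7% (Fisher's exact test, adjusted p = 0.0941), against 9.79% of all starts. The TATA box TATAAA at 18 to 40 bp before the start was at 3.50% and 3.26% (Fisher's exact test, adjusted p = 1). GAGAG within 100 bp was at 45.4% of member starts and 39.4% of the others (Fisher's exact test, adjusted p = 0.0941), against 24.99% of all coding starts. The windows of the latter group contain their own summits, so their C-rich share of 11.4%, against 2.50% of member starts, restates where the summits lie.

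Starts with a member upstream carried other elements than starts with a member downstream, a comparison added after seeing the data. The Initiator was at 22.8% of the 567 starts with an upstream member and 11.2% of the 232 with a downstream member (Fisher's exact test, adjusted p = 0.000233). DRE was at 1.24% and 10.8% (Fisher's exact test, adjusted p = 3.59e-08), and Motif 1 at 1.76% and 9.05% (Fisher's exact test, adjusted p = 1.79e-05). Over all coding starts these were 6.45% for DRE and 5.68% for Motif 1, between the values of both sides. GAGAG was at 48.3% and 38.4% (Fisher's exact test, adjusted p = 0.0183). The TATA box was at 4.23% and 1.72% (Fisher's exact test, adjusted p = 0.110), which did not pass.

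Upstream members held a group of windows poor in G and C. With the limit of 35% chosen after seeing the data, 158 of 597 upstream members (26.5%) and 15 of 237 downstream members (6.33%) were below it (Fisher's exact test, adjusted p = 5.15e-12). The shares were 33.0% and 6.54% in replicate 1's own list (Fisher's exact test, adjusted p = 9.11e-19), and 18.8% and 8.30% in replicate 2's (Fisher's exact test, adjusted p = 0.000193). Sequence upstream of genes is poor in G and C in general, with 42.1% of windows below 35% at 250 bp upstream of all coding starts and 14.1% at 250 bp downstream. The summits within 100 bp of starts had 14.0% below the limit, and the distal ones 5.71%. In the own lists of replicates 1 and 2 these were 18.9% and 7.42% within 100 bp, and 7.18% and 4.24% for distal summits. The lower share in replicate 2 was thus not particular to upstream members.

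The AT-rich upstream members were weaker in replicate 2 by rank. Their median rank was 1187 in replicate 1 and 2759 in replicate 2, while the 439 others had 1503 and 1532. Replicate 1 gave the better rank to 113 of 134 AT-rich upstream members found in both full lists, and to 191 of 408 others. Of the AT-rich ones, 92.4% lay among the strongest 3953 entries of replicate 1 and 57.0% among those of replicate 2. Base composition and replicate thus moved together here, and the part of either in these peaks was not tested. None of the 173 AT-rich members on either side held the C-rich octamer, 13 held GAGAG and 30 held TAATTA.

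The strongest AT-rich members were at Fkbp14, with 22.8% GC and ranks 28 and 57 in replicates 1 and 2, and at px, with 27.7% GC and ranks 54 and 62. Others were at genes of mitochondrial ribosomal proteins. At mRpL41 the signal was 616.7 in replicate 1, rank 35, and 151.3 in replicate 2, rank 803, with an authors' value of 763.8. At mRpS10 it was 474.8, rank 78, and 160.4, rank 697, with 631.6. The member at Arl1, a small GTPase gene, with 14.9% GC, had rank 205 in replicate 1 and no match in replicate 2. That at Cp190, which encodes an insulator protein, with 20.8% GC, had ranks 347 and 2707.

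**Figure D5:**
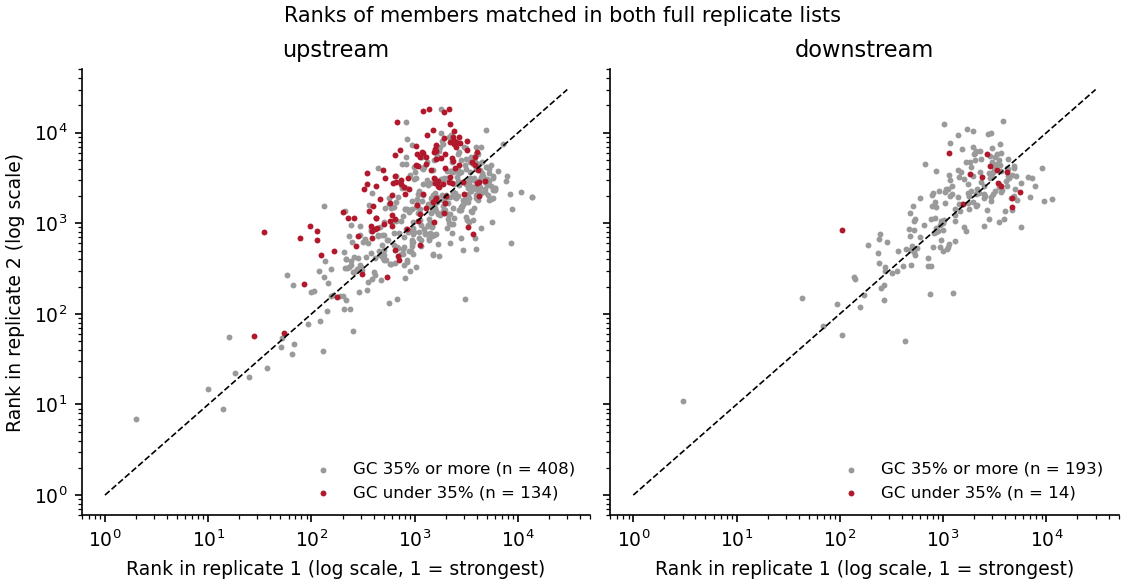
Rank of each member in replicate 1 (x axis, log scale, 1 is strongest) and replicate 2 (y axis, log scale) for upstream (left) and downstream (right) members found in both full lists, with windows under 35% GC in red and the line of equal rank dashed. Most red upstream points lie above the line, since 113 of 134 ranked better in replicate 1.

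Gene groups were counted against the 5.48% of all protein-coding genes that had a member, without a test. The lists were chosen with earlier results of these data known, and several share genes, so each count is a description. Where a list's median signal is given, it is the median over its genes of the strongest member's authors' value, and the median over all members was 236.3.

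Genes that lay out the body axes often had a member. Of 18 gap and head gap genes 11 had one, all upstream, with a median of 305.7. At ems, a head homeobox gene, the signal was 259.8 in replicate 1 and 225.0 in replicate 2, with the authors' value 478.7. At croc, a forkhead gene, it was 276.3 and 169.1, with 436.8. At oc, the orthodenticle gene, it was 249.3 and 190.9, with 426.7. These peaks were in the strongest 600 entries of both replicates. Of 12 pair-rule genes 6 had a member, led by opa at 413.1, slp1 at 362.7 and run at 357.5, which encode a zinc finger, a forkhead and a Runt domain factor. Of 14 segment polarity genes 6 had one, led by the T-box genes mid at 526.9 and H15 at 282.6 and by wg, the Wnt ligand gene, at 236.9.

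Of 14 Hox genes and cofactors 6 had a member, again all upstream. The strongest was at Dfd, 228 bp before its start, with 401.3 in replicate 1, 204.0 in replicate 2 and an authors' value of 612.6. The next were hth, the cofactor gene homothorax, at 259.5 and abd-A at 216.5. The list's median of 214 lay below that of all members. Of 24 dorsoventral regulators 8 had a member with the highest median of the patterning lists, 580.1. They were led by tup, with 536.3 in replicate 1 and 402.7 in replicate 2, by sim, with 495.2 and 385.3, and by brk, the repressor of Dpp targets, with 406.2 and 413.0. All 3 were in the strongest 128 entries of both replicates.

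Among signalling genes, the Enhancer of split genes, which are neighbours in 1 complex and answer to Notch, had a member at 9 of 13. The strongest was E(spl)malpha-BFM, a Bearded family gene, with 409.6 in replicate 1, 338.4 in replicate 2 and an authors' value of 732.8. E(spl)mbeta-HLH, a bHLH repressor gene, followed at 517.0 and E(spl)m4-BFM at 364.1. All 9 strongest members lay upstream. Of the receptor, ligands and regulators of Notch 4 of 14 had one, led by mib1 at 691.3, bib, a channel gene, at 558.4 and numb, the Notch inhibitor, at 237.9. Of the Wnt, Hedgehog and Dpp pathway genes 8 of 34 had one, led by brk and the receptor genes fz at 436.9 and fz4 at 355.1. Of the EGFR, FGF and AP-1 genes 8 of 28 had one, led by kay, by spi, the EGF ligand gene, at 592.0 and by aop, an Ets repressor gene, at 231.3. The last list had a median of 192.8, and the members at kay and spi lay downstream.

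Genes of the hormone response had members of moderate strength at 9 of 19, with a median of 193.2. The nuclear receptor genes Eip75B at 276.5, Hr38 at 230.0 and Hr3 at 211.2 led them. At Eip75B the value was 194.6 in replicate 1 and 88.35 in replicate 2, ranks 814 and 2474. Of 36 Polycomb and trithorax group genes 10 had a member, with ph-p, ph-d and Psc, which encodes another subunit of the same complex, at 538.7. Psc had 279.6 in replicate 1 and 262.3 in replicate 2. Of 47 C2H2 zinc finger genes 20 had one, all with the strongest upstream, led by erm, l(3)neo38 and jim at 614.0.

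Among the neural, gut, muscle and neuron lists the counts varied, and some of their genes are also in the lists above. Of 37 neural regulators 15 had a member, all with the strongest upstream, such as eya, the eye determination gene, at 643.6 and pdm2, a POU gene, at 410.0. Of 23 gut, GATA and forkhead regulators 12 had one, led by fkh, the forkhead gene, at 648.2, dve, a homeobox gene, at 517.2 and grn, a GATA gene, at 440.9. Of 26 muscle genes 4 had one, led by the regulator Mef2 at 787.7, Tm1, a tropomyosin gene, at 348.6 and lmd, a myoblast zinc finger gene, at 305.6. Of 28 neuron markers 4 had one, led by elav at 380.3, robo1 at 243.3 and Sh, a potassium channel gene, at 173.2. At Sh replicate 1 gave 129.3 and replicate 2 only 39.25, at rank 10020.

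Among broadly expressed genes and genes of late differentiation the lists differed. Of 25 heat shock protein genes 5 (20.0%) had one, led by Hsp83, the fly Hsp90 gene, at 473.6, Hsp27 at 356.4 and Hsc70-3 at 236.0. Of 92 cytosolic ribosomal protein genes 2 had one, RpL32 at 304.8 and RpS14a at 169.6. Of 73 mitochondrial ribosomal protein genes only the mentioned mRpL41 and mRpS10 had one, both AT-rich and stronger in rank in replicate 1. None of 48 proteasome genes (95% exact interval up to 7.40%) and none of 122 cuticle protein genes (up to 2.98%) had a member. Of 230 chemoreceptor and odorant binding protein genes 1 had one, Obp46a at 198.2. In all, 129 of the 764 member genes belonged to any of the 22 lists, which hold 930 genes.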

How the data were processed

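Peak lists of l(3)neo38-GFP ChIP-seq from 2 biological replicates were used as deposited, on the build dm6. Per the deposited descriptions, a replicate's list was made from its own alignments and a control, a pooled list from the alignments of both, and the thresholded list from these 3 by the irreproducible discovery rate procedure. Neither the peak caller nor the cutoff is named in the sources used here. Signal values are the authors' own, with no normalization stated, and were used to rank peaks within a list. The dm3 lists, the pooled list and the other deposited columns were not used, and no reads were analysed.

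Summits on arms 2L, 2R, 3L, 3R, 4 and X were assigned to the nearest transcript start of a protein-coding gene in Ensembl release 115. Sequence came from the RefSeq release 6 genome, the same assembly. Replicate summits were matched within 100 bp, using from each list its 3953 strongest entries. Two-sided Fisher's exact tests, and exact McNemar tests for paired windows, were adjusted by Benjamini and Hochberg within each family, at 0.05. Intervals are 95% exact (Clopper-Pearson) and cover counting error only. The procedures were tested on simulated data, with Python 3.11.15, numpy 2.4.6, pandas 2.3.3, scipy 1.17.1 and matplotlib 3.10.9.

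The members, gene lists and motifs were chosen with earlier results of these data known. Genes named are l(3)neo38, those nearest to the 10 strongest members on each side, up to 3 per list by signal value and the genes with most members, with ties. Sequences are the 4 strongest octamer members on each side that lie off arm 2R and overlap no annotated UTR. The AT-rich members named, and the GAGAG and CACACACA sequences, were chosen after their values were seen. Of the list names, 7 were matched through synonyms and 6 were not matched. Alternatives were a stronger set of peaks, each replicate's own list, other starts, summits, windows and match distances, and a limit on GC content.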

Additional observations from a re-analysis of the deposited data

How the results depend on the processing

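Over the results reported and the alternatives run, 148 values kept their direction and call or, for counts, stayed within 1.5 times the main count. Another 14 moved, 9 lost their call, 1 gained it and 3 changed sign. This tally leaves out single motif comparisons not called at first, of which 2 passed under the GC limit, GAGAG between the sides and CAGCTG against distal summits. Among the strongest 1976 peaks there were 486 members, 75.3% upstream, at 463 genes, with 88.7% matched in both replicates and 3 of 42 motif comparisons passing. The difference in C-rich share between members and summits within 100 bp, 1.07 points and not called, was -2.03 points there and -2.01 points in windows of 25 bp to either side. The octamer share of members was 5.16% in those windows, 16.6% in windows of 100 bp, where 10 comparisons passed, and 15.7% in windows of 35% GC or more. That limit was chosen after seeing the data, and under it the TAATTA difference from distal summits was -0.029 points. Taken from the list of either replicate alone, the difference in octamer share between upstream and downstream members ran from -9.22 to -6.34 points and was called with replicate 1 only. In thresholded windows of 35% GC or more this difference was -3.44 points and was not called. With 1 start per gene there were 590 members at 577 genes, and the upstream share was 60.2%. The share matched in both replicates was 49.5% within 50 bp, 69.7% within 200 bp and 89.8% among all entries, and 96.4% of the members matched within 50 bp kept their distance class. The cause of these shifts was not tested. The calls lost were those of GAGAG against summits within 100 bp, of CACACACA between the sides, and of TAATTA, under 1 or more of the stronger peaks, a replicate's own list, the 25-bp window and the GC limit. Taking 1 summit per cluster or starts of every gene type lost none of the 6 motif calls, and 7 and 6 comparisons passed. No paired analysis was possible because there is 1 group. Depth, and so the peaks that deeper data would add, is unknown.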
